A study of Mus musculus with 20 samples.

Results

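The glycans described here end in N-acetylglucosamine (GlcNAc) in β linkage to galactose, on lactose, on N-acetyllactosamine (LacNAc, Galβ1-4GlcNAc), on its isomer Galβ1-3GlcNAc or on the Thomsen-Friedenreich disaccharide (TF, Galβ1-3GalNAc). They were chosen by structure from the deposited list of compounds: 1 or more terminal GlcNAcβ on galactose, and no mannose, fucose, sulfate, sialic acid or GlcNAcα. Of 419 printed compounds, of which 406 were glycans, 11 met this rule. Natural antibodies (NAbs) binding to them were measured by printed glycan array (PGA) in serum of BALB/c mice, an inbred strain, aged 10 weeks and kept specific pathogen free without any treatment. The arrays are labelled as 13 females and 7 males, in which mice are named here by sex and order of deposit. The arrays of female 7 and female 8 held the same intensity in every spot and count as female 7, so that 12 females and 7 males remained. IgM and IgG were detected together on each array and cannot be told apart.

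A terminal GlcNAcβ on galactose is a step in the growth of LacNAc chains. Enzymes of the cell add GlcNAc in β1-3 linkage to a galactose, then cover it with a new galactose in β1-4 linkage, and repetition of both steps gives poly-LacNAc, the linear chain known as the i antigen. A GlcNAc added in β1-6 linkage to the same galactose opens the branch of the I antigen. When the galactoses that would cover both branches are missing, the chain ends in GlcNAcβ1-6(GlcNAcβ1-3)Gal, known as the Tk antigen. GlcNAcβ1-3Galβ1-4Glc is the precursor trisaccharide of the lacto and neolacto series of glycolipids, and GlcNAcβ1-3 on TF is an extended core of mucin O-glycans. Terminal GlcNAc is covered by further sugars on most mature glycoproteins, and is exposed on some bacterial polysaccharides.

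For each mouse, the 6 spots of a glycan were summarised by their median in relative fluorescence units (RFU), and 4000 RFU or more counts as bound, which is the threshold of the study. Spots of printing buffer, which hold no glycan, gave between 93.5 and 2044.5 RFU per array (median 577.5 RFU, 19 arrays). The arrays fell into 2 sets by the ratio of a pair of peptide compounds, 0.631 to 1.86 on 9 arrays (7 females, 2 males) and 0.0109 to 0.0561 on the other 10 (5 females, 5 males), a split that no label or file header names. Over all compounds the array median was between 126.5 and 411.5 RFU for the former and between 603 and 1504.5 RFU for the latter, so that a low value on the former and a higher one on the latter can be the level of the array. Their buffer spots lay at 93.5 to 644 RFU and at 309 to 2044.5 RFU. Glycans were therefore compared with each other within each mouse.

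NAbs to the 11 glycans were weak in most mice and strong in a few. The median over 19 mice ran from 351 RFU for GlcNAcβ1-2Galβ1-3GalNAcα-sp3 (246) to 1134 RFU for GlcNAcβ1-3Galβ1-4GlcNAcβ-sp3 (250), and the median of the 11 medians was 540.5 RFU, beside 635.5 RFU over all compounds. None of the 11 was bound in more than 3 mice. In all, 6 of the 11 were bound in at least 1 mouse, against 54.9% of all compounds, and 13 of 209 values (6.22%) were at or above 4000 RFU, against 13.6% of the values of all compounds. With GlcNAcβ on another GlcNAc, 7 of 7 chitooligosaccharides and related chains were bound in at least 1 mouse, with 38 of 133 values (28.6%) at or above the threshold. Most of these values came from GlcNAcβ1-4GlcNAcβ on Asn (115, 14 mice) or sp4 (117, 11 mice) and from GlcNAcβ1-4GlcNAcα-sp4 (807, 8 mice). The rest of these chains were each bound in 1 or 2 mice, among them GlcNAcβ1-4GlcNAcβ-sp3 (116) in 1. With GlcNAcβ on GalNAcα, as in the cores of mucin O-glycans, 7 of 7 were bound, with 36 of 133 values (27.1%). These shares are counts over the same mice and were not tested.

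The β1-3 form on LacNAc, the unit that grows poly-LacNAc, had the highest medians of the family. Its aminopropyl form GlcNAcβ1-3Galβ1-4GlcNAcβ-sp3 (250) ran from 61 RFU to 7226 RFU, median 1134 ± 842.5 RFU (median absolute deviation, n = 19 mice), and was at or below the buffer of its own array in 1 mouse. The aminoethyl form (249, sp2) ran from 62.5 to 7468 RFU with a median of 1004 ± 794 RFU, and was at or below buffer in 5 mice. Both forms were bound in the same 2 females, female 12 (7468 RFU for sp2 and 7226 RFU for sp3) and female 9 (4088 and 6900 RFU). That share of 2 in 19 mice has an exact binomial 95% interval of 1.3 to 33.1%. The next value of either form was that of male 6, 2993 and 3658.5 RFU.

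On LacNAc, the β1-6 form GlcNAcβ1-6Galβ1-4GlcNAcβ-sp2 (253), the start of an I branch, had a median of 978.5 ± 461 RFU and the widest range of the family, from 111 to 30294 RFU. It was bound in 3 mice (15.8%, interval 3.38 to 39.6%), female 5 with 30294 RFU, male 6 with 9027.5 RFU and female 11 with 4682 RFU. In these mice the β1-3 and β1-4 forms with the same spacer reached no more than 2993 RFU and 365 RFU. The β1-4 form had lower medians, 479 ± 270.5 RFU with sp2 (251) and 396 ± 178.5 RFU with sp3 (276), and its sp2 form was at or below buffer in 11 mice. Female 6 alone bound both, with 9531 and 9060.5 RFU, and female 12 bound the sp3 form with 6718.5 RFU against 1185 RFU for the sp2 form.

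With a GlcNAc at both of 2 positions, GlcNAcβ1-4(GlcNAcβ1-3)Galβ1-4GlcNAcβ-sp2 (394) lay at 761 ± 365 RFU in the median, and 3 mice bound it, male 7 with 22026 RFU, male 3 with 5891 RFU and female 12 with 5202.5 RFU. In male 7 no other member exceeded 2330.5 RFU, and the single β1-3 and β1-4 forms were at 974 and 910.5 RFU with sp2. The Tk structure GlcNAcβ1-6(GlcNAcβ1-3)Galβ1-4GlcNAcβ-sp2 (395) had a median of 768 ± 595 RFU, and no mouse reached the threshold: the highest, male 4, was at 3722.5 RFU. For 0 of 19 mice the exact interval extends to 17.6%.

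Members on other cores stayed below 4000 RFU in all 19 mice. The lactose form GlcNAcβ1-3Galβ1-4Glcβ-sp2 (248) ran from 64.5 to 3109.5 RFU with a median of 540.5 ± 326 RFU, and the form on the type 1 chain, GlcNAcβ1-3Galβ1-3GlcNAcβ-sp3 (267), from 83 to 3204.5 RFU with a median of 485.5 ± 325.5 RFU. Those on TF were lowest. GlcNAcβ1-3Galβ1-3GalNAcα-sp3 (247) did not exceed 643.5 RFU, with a median of 391.5 ± 183.5 RFU, and was at or below the buffer of its array in 18 of 19 mice. The β1-2 isomer (246) had a median of 351 ± 131 RFU and was at or below buffer in 14 mice, with 2026.5 RFU in male 5, whose buffer was the brightest of all, at 2044.5 RFU. Trehalose-ethanolamine (629), the negative control, lay at 238.5 ± 123 RFU and reached 914 RFU at most.

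**Figure D1:**
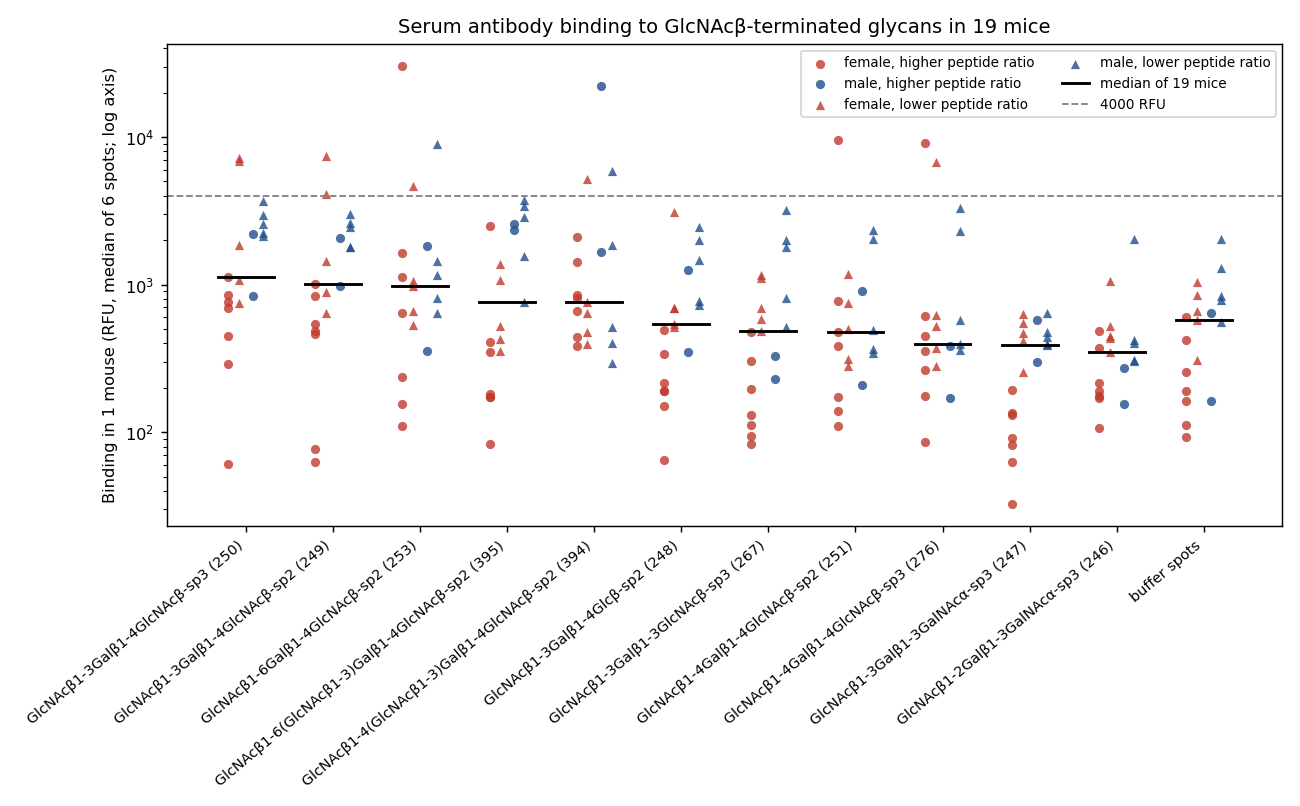
Each point is the RFU of 1 glycan in 1 mouse (log axis) for the 11 members and the buffer spots, with colour for the sex, shape for the set of arrays by peptide ratio, black lines for the median of 19 mice and a dashed line at 4000 RFU. Points above the dashed line belong to 6 glycans and are mostly 1 to 3 mice far above the rest, such as 30294 RFU for the β1-6 form (253) and 22026 RFU for the β1-3,β1-4 branched form (394).

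The 13 bound values lay in 8 of the 19 mice, 5 females and 3 males, 3 on the arrays with the higher peptide ratio and 5 on the others. Female 12 bound 4 of the 11 members and also bound 90 of all 419 compounds (21.5%), the most of any mouse. Females 6 and 9 bound 2 members each, and females 5 and 11 and males 3, 6 and 7 bound 1 each. Replicate spots scattered around these medians, from 15376 to 40420 RFU for the β1-6 form in female 5, from 9163 to 26241 RFU for the branched form in male 7, and from 615 to 11884 RFU for the β1-3 sp3 form in female 9. In the last case 1 of the 6 spots was flagged as not found by the scanner software. So was 1 spot of the β1-4 sp3 form (276) in female 6, whose spots ran from 12 to 16984 RFU. No pixel of any spot of the 11 glycans was saturated.

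The profiles of these mice over related glycans differed from one to the next. The partners named here are those of the listed pairs, and 118, 256, 807, 11, 158 and 159 were chosen after their values were seen. In female 5 the β1-6 form (253) at 30294 RFU stood beside 39293.5 RFU for LacNAc itself with the same spacer (96), which lacks the terminal GlcNAc, and 26449 RFU for the α anomer GlcNAcα1-6Galβ1-4GlcNAcβ-sp2 (245). The same serum gave 34333 RFU with that chain covered by Galβ1-4 (387) and 24334 RFU with it covered by Galβ1-3 (381), but 123.5 RFU for LacNAc with the sp3 spacer (97). On LacNAc with a 4-O-sulfate on its galactose, that serum gave 43346.5 RFU with sp2 (158) and 17784.5 RFU with sp3 (159). Free GlcNAcβ-sp2 (11) was at 20820.5 RFU there. In male 6, by contrast, LacNAc-sp2 was at 777 RFU, the α anomer at 346.5 RFU and the Galβ1-4 covered chain at 898.5 RFU, beside 9027.5 RFU for the β1-6 form.

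Male 6 and female 11 were also the brightest of all mice on GlcNAcβ1-6GalNAcα-sp3 (118), with 45708 and 50324.5 RFU against a median of 1238.5 RFU, whereas female 5 was at 163.5 RFU. That glycan was bound in 4 mice. The others, female 12 with 27427.5 RFU and male 2 with 15945 RFU, were at 1056.5 and 1439.5 RFU on the β1-6 form. Female 11 had 3835 RFU on LacNAc-sp2 and 5828 RFU on the Galβ1-4 covered chain, close to its 4682 RFU on the β1-6 form. Female 6, the one that bound both β1-4 forms, was the brightest on GlcNAcβ1-6(GlcNAcβ1-4)GalNAcα-sp3 (256), with 20277 RFU against a median of 2638.5 RFU. It had 31170 RFU on GlcNAcβ1-4GlcNAcα-sp4 (807), where the median was 3680.5 RFU, and 278 RFU on LacNAc-sp2. Each of 256 and 807 was bound in 8 mice, of which only female 6 bound a β1-4 form. Male 2 had 15193.5 RFU on 256 and 60327 RFU on 807, but 495.5 and 574.5 RFU on the β1-4 forms. Female 12, which bound the β1-4 form with sp3, was at 1507 RFU on 256 and 2104.5 RFU on 807. Female 12 bound the α1-6 anomer (245) with 24010.5 RFU and was at 1056.5 RFU on the β1-6 form. It also gave 5606.5 RFU with the β1-3 form covered by Galα1-4 (375), the only mouse that bound that glycan, beside 7226 RFU with the uncovered form.

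**Figure D2:**
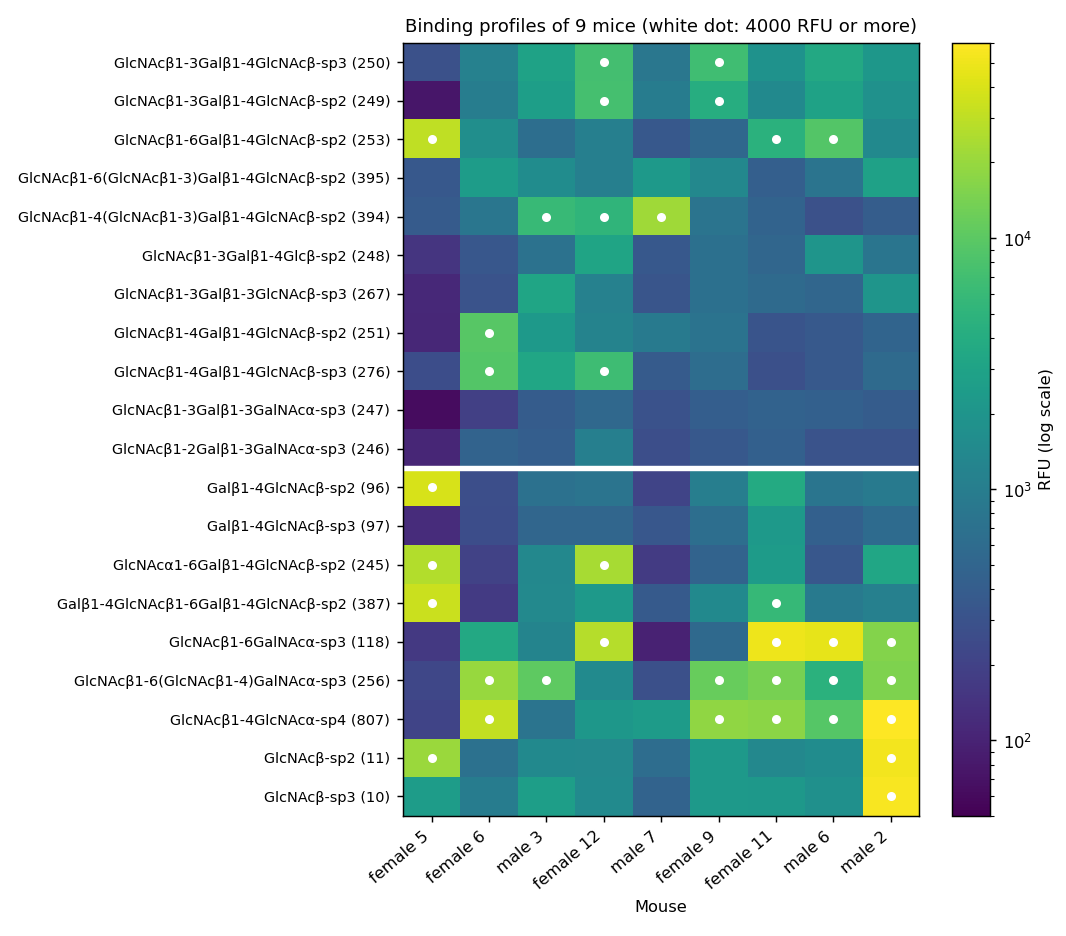
RFU (colour, log scale) of the 8 mice that bound a member, and of male 2, on the 11 members (above the white line) and on 9 related glycans (below it), with a white dot at 4000 RFU or more. Female 5 is bright on LacNAc-sp2, on both GlcNAc1-6 anomers and on free GlcNAcβ-sp2, whereas female 11 and male 6 are brightest on GlcNAcβ1-6GalNAcα.

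The forms were then compared pairwise within mice, with the difference in log2 RFU averaged over 19 mice, after raising values under 100 RFU to 100. Each of 39 pairs was listed under 1 named change in structure, 15 with both glycans in the family and 24 with 1 outside it. That change spans more than 1 residue for the branched forms against LacNAc and for 395 against 499. Between 267 and 247 it covers a sugar and its anomer. An exact sign-flip permutation test (two-sided, 524288 sign assignments) was applied to each, p-values were adjusted over the 39 pairs after Benjamini and Hochberg, and the 95% intervals given are not adjusted. A pair was called at an adjusted p under 0.05, and 16 were: 6 of the 15 and 10 of the 24. Many called pairs share a glycan, most often 250, its sp2 form 249 or 395, so the 16 calls are not independent results. All 16 differences had the same sign on both sets of arrays, as did 29 of all 39. Both sets are parts of the 19 arrays that gave the calls, so agreement on a set is not a separate test. On the 10 arrays with the lower peptide ratio 14 pairs were called, among them 11 of the 16. On the other 9 none was, with a lowest adjusted p of 0.0762 by the same exact test and 11 pairs under 0.05 unadjusted. The smallest p that 9 mice allow is 0.00391 before adjustment. Where the second glycan was mostly at or below buffer, the fold depends on the floor, and the fold with every value raised to the buffer median of its array is given where it moved a called difference by over 1.5 times or ended the call.

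**Figure D3:**
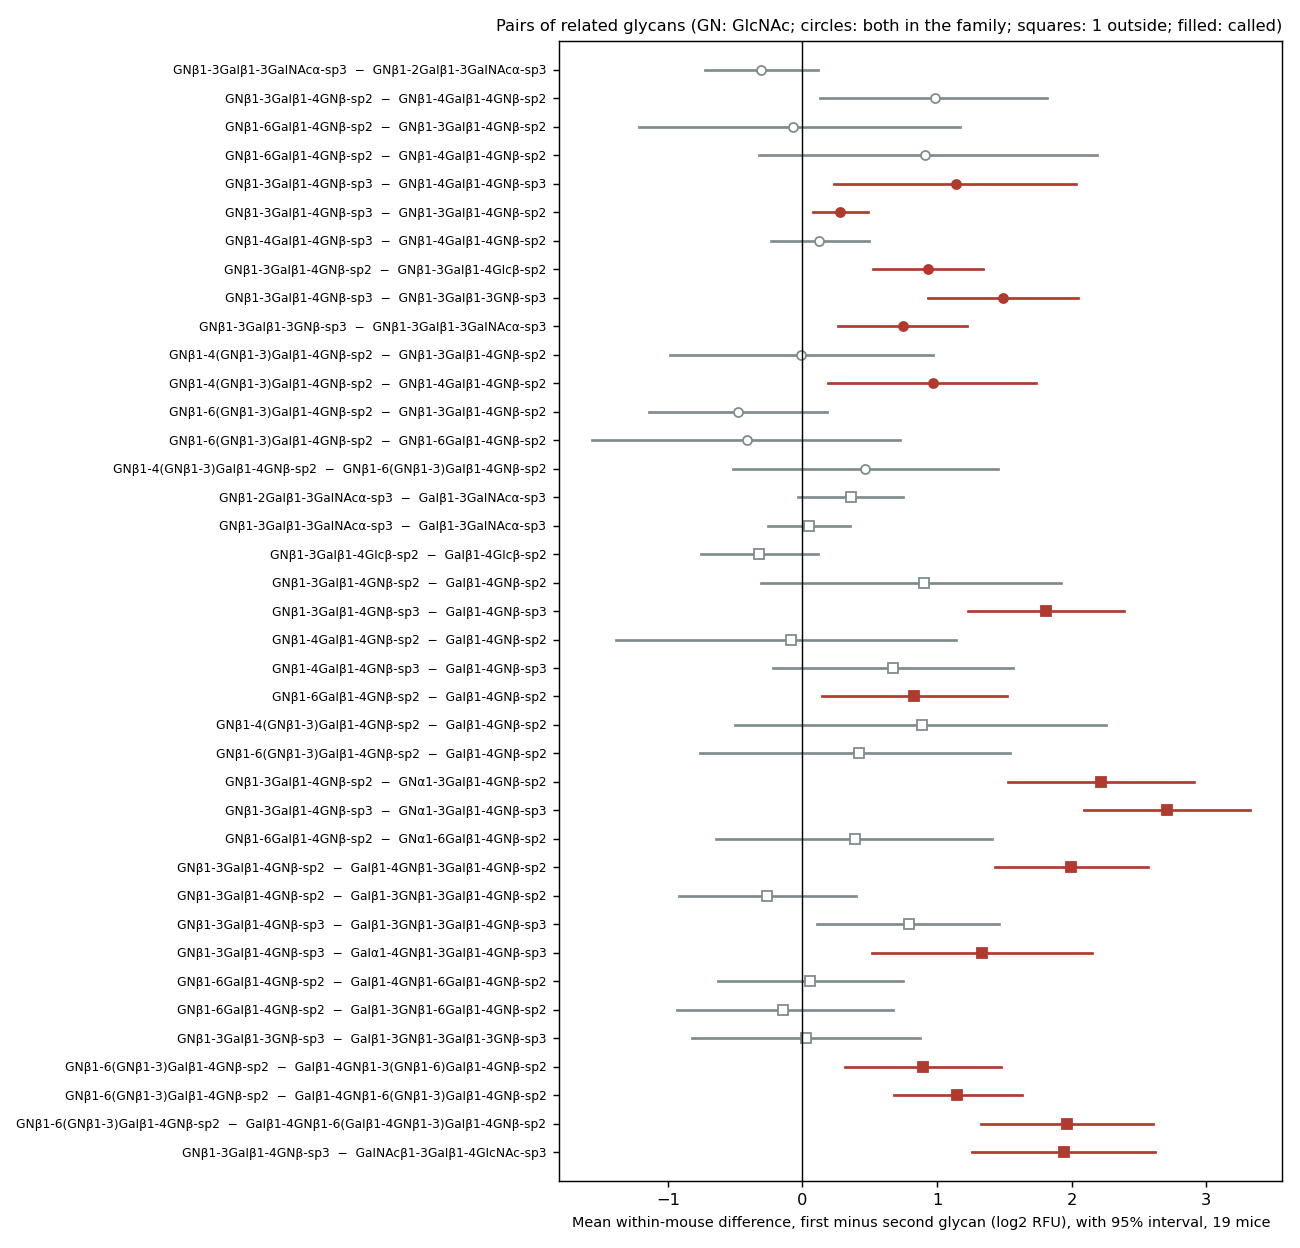
Mean within-mouse difference in log2 RFU (first minus second glycan) with its 95% interval for 39 pairs in 19 mice, with filled red symbols where the adjusted p was under 0.05. All 16 called differences lie to the right of 0, a side that depends on which glycan of a pair is listed first. Those of the β1-3 form on LacNAc over its α anomer, which was at or below buffer in 18 mice, are 2.22 and 2.71 with the floor of 100 RFU. With values raised to the buffer median they are 1.27 and 1.50.

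The first pairs asked which chain beneath the GlcNAcβ1-3Gal unit went with more binding, and LacNAc stood above the others. On LacNAc the β1-3 form (250) was 2.81-fold above its type 1 isomer (267), with an interval of 1.91 to 4.12, and higher in 16 of 19 mice (log2 difference 1.49 ± 0.26 (SE), adjusted p = 0.00026). The difference was 1.70 on the arrays with the higher peptide ratio and 1.30 on the others. Exchange of the inner GlcNAc for glucose, LacNAc (249) against lactose (248), went with a 1.91-fold difference (1.44 to 2.54, adjusted p = 0.00109), with LacNAc higher in 14 mice and lower in 4. The type 1 form (267) was 1.67-fold above the same unit on TF (247) (1.20 to 2.33, adjusted p = 0.011). In 8 mice both glycans of this last pair were at or below buffer, and with values raised to the buffer median the pair was not called (1.25-fold, adjusted p = 0.142). All 3 calls held when any 1 mouse was left out.

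Between positions on LacNAc, the β1-3 form was above the β1-4 form by 2.2-fold with sp3 (1.18 to 4.08, adjusted p = 0.045) and by 1.98-fold with sp2 (1.1 to 3.52, adjusted p = 0.0591), in 15 of 19 mice each, so that only the first was called. With values raised to the buffer median it was 1.56-fold and not called (adjusted p = 0.228). It was also not called with log2(RFU + 500), quantile normalization, spots not found left out or neither copy of the identical arrays, nor on the arrays with the higher ratio. The call held in 5 of the 19 fits with 1 mouse left out (without female 1, female 5, female 6, male 3 or male 5), and the sp2 pair was called without female 1 or without female 6. The sp2 difference was 0.18 on the log2 scale on the arrays with the higher ratio and 1.71 on the others. No difference was called for β1-6 against β1-3 (0.952-fold, 0.431 to 2.25) or for β1-6 against β1-4 (1.88-fold, 0.801 to 4.55). Both intervals allow differences of more than 2-fold in at least 1 direction, and different mice were high on each form. On TF, β1-3 against β1-2 gave 0.807-fold (0.604 to 1.08, adjusted p = 0.232), with both at or below buffer in 13 mice.

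With a second GlcNAc on the same galactose, 1 of 4 differences from a single form was called. The β1-3,β1-4 branched form (394) was 1.96-fold above the single β1-4 form (251) (1.14 to 3.33, adjusted p = 0.045), a call that held in 5 of 19 fits with 1 mouse left out (without female 6, female 9, male 2, male 5 or male 6) and was lost on either set of arrays alone and with values raised to the buffer median (1.69-fold, adjusted p = 0.142). That call was also lost with spot means, log2(RFU + 500), spots not found left out and neither copy of the identical arrays. Against the single β1-3 form (249) the same branched form gave 0.991-fold (0.507 to 1.96), with a difference of 1.34 on the log2 scale on one set of arrays and -1.23 on the other. The Tk structure (395) was not called against the β1-3 form (0.717-fold, 0.454 to 1.13) or the β1-6 form (0.753-fold, 0.339 to 1.65). Nor was the difference between both branched forms called (1.38-fold, 0.699 to 2.74).

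Removal of the terminal GlcNAc tests what it adds to the core beneath it, and 10 such pairs were compared. The β1-3 form with sp3 (250) was 3.5-fold above LacNAc-sp3 (97) (2.34 to 5.24, adjusted p = 9.92e-05) and higher in 17 of 19 mice. With the sp2 spacer the same change gave 1.87-fold (0.808 to 3.78, adjusted p = 0.232) and was higher in 15 mice. Without female 5, which had 39293.5 RFU on LacNAc-sp2 and 77.5 RFU on the β1-3 form, that pair was called as well (adjusted p = 0.00137). The β1-6 form was 1.78-fold above LacNAc-sp2 (1.11 to 2.86, adjusted p = 0.045), which held in 6 of 19 fits with 1 mouse left out (without female 2, 5, 9 or 10 or male 3 or 5) and on neither set of arrays alone. That call was also lost with log2(RFU + 500), quantile normalization, spots not found left out and neither copy of the identical arrays. For the other 7 pairs no difference was called: the β1-4 forms on LacNAc, both branched forms, both forms on TF and the lactose form, which was below lactose in 14 of 19 mice (0.8-fold, 0.594 to 1.08, adjusted p = 0.232). The form with GlcNAcβ1-3 on TF (247) and TF alone (89) differed by 1.03-fold (0.84 to 1.27), and both were at or below buffer in 16 mice. The Tk structure (395) against LacNAc-sp2 (96) averaged -0.56 on the log2 scale in females and 2.10 in males. That sex difference was not called (exact permutation of the sexes, adjusted p = 0.143).

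Anomers of the terminal GlcNAc were compared next. GlcNAcβ1-3 was 4.64-fold above GlcNAcα1-3 on LacNAc-sp2 (249 against 242, 2.88 to 7.49, adjusted p = 9.92e-05) and 6.53-fold above it on LacNAc-sp3 (250 against 243, 4.26 to 9.99, adjusted p = 9.92e-05). The α anomers did not exceed 995.5 RFU and were each at or below buffer in 18 mice, so that these folds depend on the floor of 100 RFU. With values raised to the buffer median they were 2.42-fold and 2.83-fold, both still called (adjusted p = 0.000793 and 0.000298). The β anomer was lower in none of the 19 mice. With the floor of 100 RFU the differences on the log2 scale were 1.79 and 2.16 on the arrays with the higher peptide ratio and 2.60 and 3.20 on the others. In the β1-6 position no difference between anomers was called (253 against 245, 1.31-fold, 0.641 to 2.66, adjusted p = 0.592): female 5 bound both, female 11 and male 6 only the β anomer, and females 10 and 12 only the α anomer. Exchange of GlcNAcβ for GalNAcβ in the β1-3 position (250 against 275, listed without the anomer of its inner GlcNAc) gave a 3.84-fold difference (2.4 to 6.15, adjusted p = 9.92e-05), with GlcNAc higher in 17 of 19 mice. GalNAc was at or below buffer in 13 mice, and with values raised to the buffer median the difference was 2.47-fold (adjusted p = 0.000793).

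Covering the terminal GlcNAc with galactose bears on whether the signal needs it exposed. With Galβ1-4, which completes a LacNAc unit, the β1-3 form (249) was 3.99-fold above the covered chain (384) (2.69 to 5.92, adjusted p = 9.92e-05). Only in female 1 was the uncovered form the lower one, at 62.5 against 73 RFU, both under the floor. The covered chain ran from 69 to 707 RFU and was at or below buffer in 17 mice, and with values raised to the buffer median the difference was 2.42-fold (adjusted p = 0.000793). The Tk structure (395) was 1.86-fold above the chain covered on its β1-3 branch (489) (1.25 to 2.78, adjusted p = 0.0164) and 2.22-fold above the one covered on its β1-6 branch (490) (1.6 to 3.1, adjusted p = 9.92e-05). With both branches covered (499), which is the I antigen structure and did not exceed 332 RFU, the difference was 3.91-fold (2.51 to 6.09, adjusted p = 0.000106). That covered form was at or below buffer in 16 mice, and with values raised to the buffer median the difference was 1.86-fold (adjusted p = 0.00317). The first of these 3 differences was not called where spots flagged as not found were left out, nor on either set of arrays alone. That difference (395 against 489) averaged 0.33 on the log2 scale in females and 1.88 in males. The sexes were not called different on it (exact permutation of the sexes, adjusted p = 0.0604). Against 490 the means were 1.09 in females and 1.25 in males.

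Galactose in other linkages was compared in the same way. With Galα1-4 on the β1-3 form (375) the uncovered glycan was 2.51-fold higher (1.43 to 4.43, adjusted p = 0.011), which was not called with values raised to the buffer median (1.57-fold, adjusted p = 0.0611) or on either set of arrays alone. Galβ1-3, which makes a type 1 end, was not called on the β1-3 form with sp2 (403, 0.835-fold, 0.529 to 1.32) or with sp3 (379, 1.73-fold, 1.08 to 2.75, adjusted p = 0.0591). The sp3 pair was called without female 1, female 3 or male 7. On the type 1 chain the pair of 267 and its Galβ1-3 covered form (401) gave 1.02-fold (0.566 to 1.83), with differences of -1.03 and 0.97 on the log2 scale on the sets of arrays. On the β1-6 form neither Galβ1-4 (1.04-fold, 0.648 to 1.68) nor Galβ1-3 (0.907-fold, 0.525 to 1.59) was called.

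Only the spacer differed between the members of 2 pairs, which bears on how far a value depends on the attachment to the slide. The sp3 form of GlcNAcβ1-3LacNAc was 1.21-fold above the sp2 form (1.05 to 1.4, adjusted p = 0.0184), higher in 13 mice and lower in 5, with differences of 0.29 and 0.27 on the log2 scale on the sets of arrays, neither called alone. For GlcNAcβ1-4LacNAc the forms were not called different (1.09-fold, 0.852 to 1.41, adjusted p = 0.665). Across mice both forms moved together within each set of arrays. For the β1-3 glycan Pearson's r was 0.93 on the 9 arrays (exact permutation p = 0.000165) and 0.95 on the 10 (permutation p = 0.00013), with Spearman's rho of 0.90 (exact permutation p = 0.00225) and 0.98 (permutation p = 3e-05). For the β1-4 glycan r was 0.93 (exact permutation p = 0.00191) and 0.89 (permutation p = 0.0027), and rho was 0.82 (exact permutation p = 0.0108) and 0.89 (permutation p = 0.0011). All 8 values had an adjusted p of at most 0.0108 over this family of 8 permutation tests, and without the 2 mice farthest from the median r was 0.86 to 0.98. Both spots of a mouse share its array, and with the array median subtracted r was 0.77 to 0.95 while rho of the β1-3 glycan on the 9 arrays was 0.33 (exact permutation p = 0.385).

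**Figure D4:**
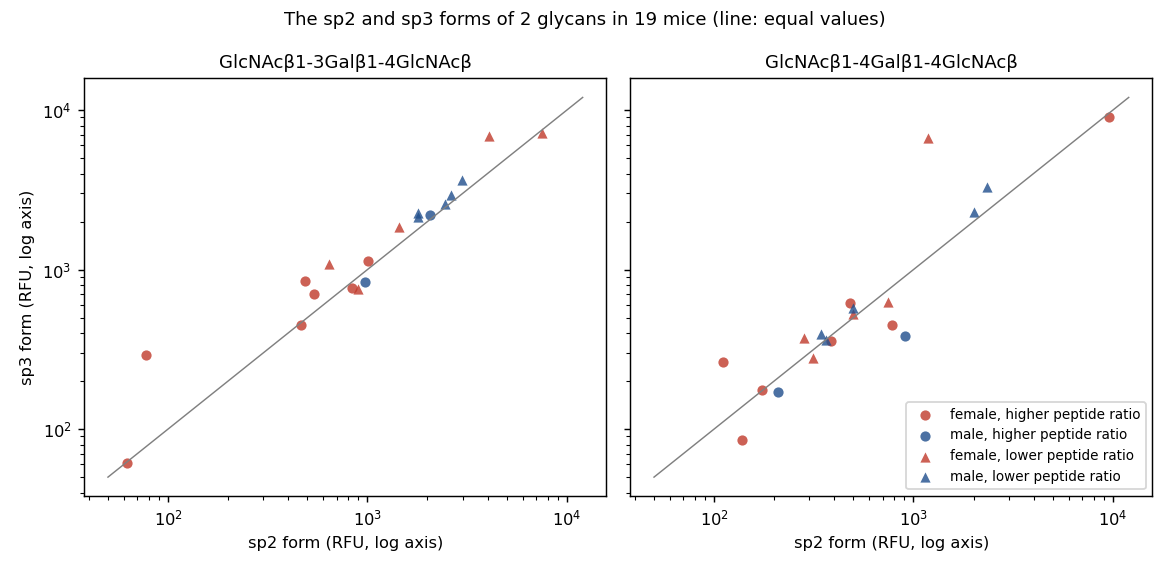
RFU of the sp3 form against that of the sp2 form of GlcNAcβ1-3LacNAc (left) and GlcNAcβ1-4LacNAc (right) in 19 mice, on log axes with the line of equal values, colour for sex and shape for the set of arrays. Most mice lie near the line, and female 12 stands off it in the right panel with 6718.5 RFU for sp3 against 1185 RFU for sp2.

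Females and males were compared on log2 RFU with limma across all 419 compounds. All 11 members had a lower mean in females, as had 385 of all 419 compounds, with a median difference of -1.13 over the members and -0.75 over all compounds. Buffer spots, which carry no glycan, differed by -1.09 (medians 366.75 RFU in females and 785.5 RFU in males, exact permutation test, two-sided, p = 0.0626). The Tk structure (395) was the member that passed, where 1.43% of all compounds were called lower in females. It ran from 83.5 to 2492.5 RFU in females with a median of 381.5 RFU, and from 768 to 3722.5 RFU in males with a median of 2568 RFU. All 7 males were above the female median, and the ranges overlapped between 768 and 2492.5 RFU. The difference was -2.43 ± 0.63 (SE) on the log2 scale (limma adjusted p = 0.0464), and the exact permutation test gave p = 0.00105 with an interval of -3.63 to -1.22.

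Sex and set of arrays were partly mixed, and on the Tk structure the difference was -3.05 on the arrays with the higher ratio, which hold 2 males, and -1.71 on the others. Within sets it was -2.22 (exact permutation p = 0.00121 before adjustment), and neither that test (adjusted p = 0.0616 over 419 compounds) nor limma with the set as a term (adjusted p = 0.0843) called it. The limma call held in 4 of the 19 fits with 1 mouse left out (without female 6, 9 or 12 or male 6), with adjusted p up to 0.131. Quantile normalization, which moved the median difference of all compounds to 0.04, left -1.54 (adjusted p = 0.428), and 4 of the other 10 members then had a higher mean in females. Among those 10 members, 247, 248 and 267 had an unadjusted limma p under 0.05, with differences of -1.13, -1.53 and -1.44, and adjusted p from 0.216 to 0.266. The β1-3 forms on LacNAc differed by -1.43 (249) and -1.22 (250), the β1-6 form by -0.50 (253) and the other branched form by -0.92 (394), with limma adjusted p from 0.318 to 0.7. The β1-4 forms and 246 differed by -0.47 (251), -0.18 (276) and -0.31 (246). Their exact intervals ran from -2.02 to 1.12, from -1.98 to 1.65 and from -1.33 to 0.68.

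**Figure D5:**
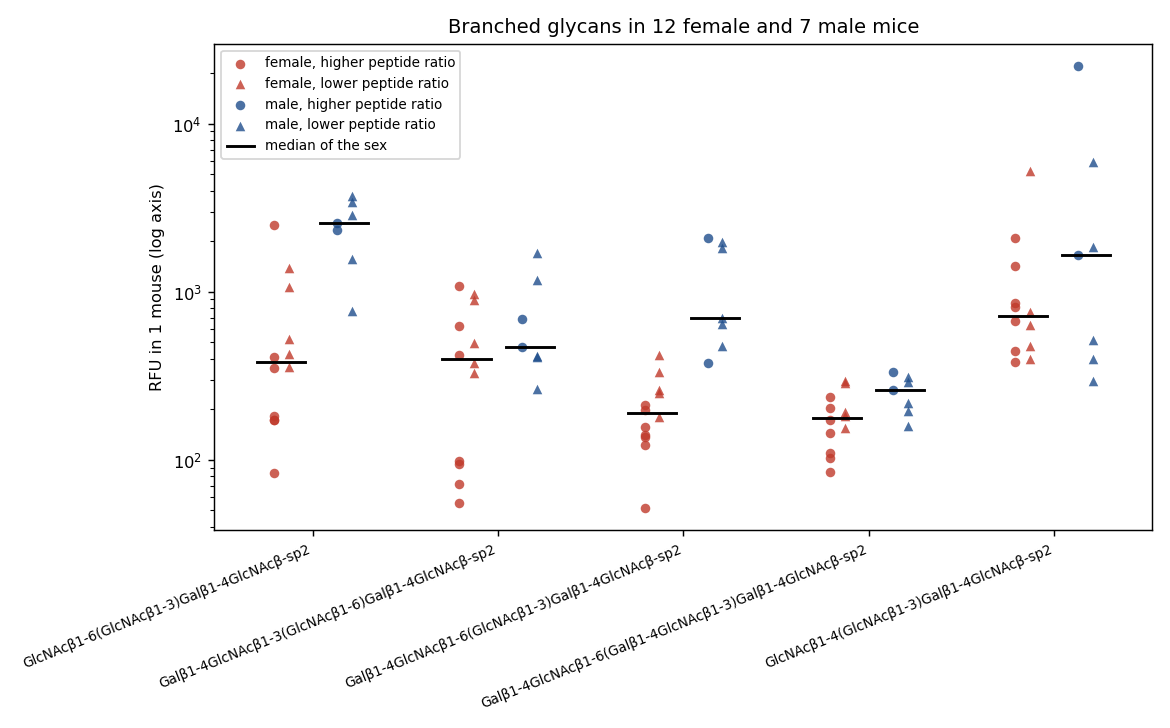
RFU of the Tk structure, of its forms covered by galactose on 1 or both branches and of the β1-3,β1-4 branched form in 12 females and 7 males (log axis), with black lines for the median of each sex and shape for the set of arrays. The Tk structure has medians of 381.5 RFU in females and 2568 RFU in males, whereas its form covered on both branches stays at or below 332 RFU in every mouse.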

How the data were processed

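Serum of 20 labelled BALB/c mice was read on 1-dye (Cy5) arrays. The authors quantified each slide with ScanArray Express 4.00. For every spot they deposited the intensity averaged over its pixels on the linear scanner scale, the local background and the percent of saturated pixels. The authors' table of the series gives the structures, a pooled intensity and how many animals reached 4000 RFU. The file headers list a LOWESS normalization, which needs a second channel, and no scaling between arrays was applied here. The median of 6 spots was taken per mouse, local background left in, and identical arrays (females 7 and 8) were counted once. Log2 values had a floor of 100 RFU. Pairs were tested by exact sign flips, sexes with limma 3.58.1 (R 4.3.3) and exact permutation (50388 assignments, 9072 within sets), in Python 3.11.15 with numpy 2.4.6, pandas 2.3.3 and scipy 1.17.1, and adjusted after Benjamini and Hochberg. The steps were tested on simulated data, which for the sex comparison had less spread than the real values and no difference between sets of arrays. The members, pairs and lists were chosen with earlier results of these data known. Every member is named, other glycans only as partners in a pair or controls unless stated. Alternatives covered spot means, background subtraction, a floor at the buffer median, log2(RFU + 500), quantile normalization, spots not found, the identical arrays, the sets of arrays, thresholds and left-out mice. The number of arrays limits precision, and whether littermates or cages were shared is not given in the sources used here.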

Additional observations from a re-analysis of the deposited data

Results flagged for a closer look

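Among the 7 males, 3 of the 11 glycans had a mouse set apart from the others by more than Dixon's 95% limit for 7 values (0.568) on the RFU scale. Chance flags about 1 in 20 groups of normally distributed values, a rate that was not checked for RFU, which are skewed. GlcNAcβ1-6Galβ1-4GlcNAcβ-sp2 (253) was at 9027.5 RFU in male 6 against 1817.5 RFU in the next male (ratio 0.831). GlcNAcβ1-4(GlcNAcβ1-3)Galβ1-4GlcNAcβ-sp2 (394) was at 22026 RFU in male 7 against 5891 RFU in the next (0.742). GlcNAcβ1-2Galβ1-3GalNAcα-sp3 (246) was at 2026.5 RFU in male 5 against 418.5 RFU in the next (0.859), and the buffer spots of that array were at 2044.5 RFU. On the log2 scale, an alternative chosen after seeing the data, the ratios were 0.495 for 253 and 0.305 for 394, both under the limit, and 0.614 for 246. At the low end of the males, GlcNAcβ1-3Galβ1-4GlcNAcβ-sp3 (250) had a ratio of 0.634 on that scale, also above the limit. The 12 females were too many for this rule.

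The margin of the Tk structure (395) over its form covered by galactose on both branches (499) differed between the sexes with the floor at 100 RFU. It averaged 1.26 on the log2 scale in females (range -0.24 to 3.39) and 3.17 in males (2.27 to 4.10), a difference of -1.91 (exact permutation of the sexes, adjusted p = 0.0379 over 39 pairs, the lowest of the 6 pairs under 0.05 unadjusted). The covered form was at or below buffer in 16 of 19 mice, and the sex call of the Tk structure itself was lost under 7 alternatives. With values raised to the buffer median the sex difference was -0.98 and was not called (exact permutation, adjusted p = 0.422). With the floor at 100 RFU all 7 males lay above the female median. The difference was -2.03 and -1.62 on the sets of arrays, -1.78 within sets (exact permutation p = 0.00154 before adjustment) and -1.73 after quantile normalization (exact permutation p = 0.003).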

How the results depend on the processing

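The count of 16 called pairs was 12 to 18 under 9 of the 10 alternatives to processing and arrays, 13 to 16 with each mouse left out in turn, and 0 on the 9 arrays with the higher peptide ratio. Over 39 pairs and these 10 alternatives, 342 of 390 results stayed on their side of the threshold, 38 lost the call and 10 gained it. The sign changed in 26 of them, all without a call. Only the 16 called pairs could lose a call. Those of 250 over 276, 394 over 251 and 253 over 96 lost theirs under the most alternatives. The sex call of the Tk structure was lost (0 members called) with local background subtracted, values raised to the buffer median, quantile normalization, spots not found left out, neither copy of the identical arrays, the set of arrays as a term and the exact permutation test within sets. It was 0 to 1 with each mouse left out. The count of 13 values at or above 4000 RFU became 7 after quantile normalization, 39 at 2000 RFU and 5 at 8000 RFU. The median level of the family was 540.5 RFU from medians over mice and 1308 RFU from means. Females could not be paired with males because replicate numbers of the sexes only name the samples in order. Values at or below the buffer level, as in most mice for the α anomers and the chains covered by Galβ1-4 on the β1-3 branch, give folds that move with the floor.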

Other observations

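The mouse brightest on free GlcNAcβ, male 2, bound none of the 11 glycans. Of the 7 glycans with GlcNAcβ on GalNAcα, 4 were brightest in mice that bound 1 or 2 of the 11. The rest were brightest in mice that bound none, 254 in male 5 (6533 RFU), and 113 and 255 in male 2 (60827.5 RFU on 255). Male 3 had 55565.5 RFU on GalNAcα with 3 GlcNAcβ (396) and bound 394, male 6 had 41901.5 RFU on the other compound listed with that structure (397) and bound 253, and females 6 and 11 were the brightest on 256 and 118. All were singled out after their values were seen, as was male 2, which had 55912 RFU on free GlcNAcβ-sp3 (10) and 52340.5 RFU on GlcNAcβ-sp2 (11), where the medians of 19 mice were 1494.5 and 1382.5 RFU and the next mice were at 4038 and 20820.5 RFU. It was also the brightest on GlcNAcβ1-4GlcNAcα-sp4 (807, 60327 RFU), on the chitin hexasaccharide (503, 31532 RFU) and on GlcNAcβ1-3GalNAcα-sp3 (113, 54283 RFU). On the 11 glycans with GlcNAcβ on galactose its highest value was 2851.5 RFU, on the Tk structure (395), followed by 2133.5 RFU on GlcNAcβ1-3Galβ1-4GlcNAcβ-sp3 (250). GlcNAcβ1-3GalNAcα-sp3 and GlcNAcβ1-3 on TF (247, 399 RFU) share the terminal linkage. The latter is a longer chain, with a galactose between the GlcNAc and the GalNAcα.

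In the deposited table of the series, the pooled RFU, labelled as a median, lay within 0.745% of the mean over the 20 arrays for 10 of the 11 glycans and 3.72% from it for 394. It was 0.928 to 3.49 times the median over the same arrays.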
